A study of Mus musculus with 30 samples.

Results

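Hepcidin and the genes that move and store iron were followed in mouse liver under 2 models of anorexia, with and without an osmotic pump delivering ACBP, the acyl-CoA-binding protein encoded by Dbi. The 10 genes are those named Hamp, Hamp2, Trf, Tfrc, Tfr2, Slc40a1, Fth1, Ftl1, Hfe and Bmp6 in a table of 48440 genes. These names matched 11 entries, because a second entry named Fth1 is the processed pseudogene Fth-ps3, which had 0 reads in all 30 libraries. All 10 genes had reads in every library and passed the filter on low counts that left 16304 genes for testing.

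All libraries were made from liver RNA of wild type female C57BL/6 J mice, 8 weeks old when the pump was implanted. The CDDP+ACBP group carried a pump with 2.5 mg/mL of ACBP and received CDDP (cisplatin, a drug that crosslinks DNA) 72 hours after the implant, and the CDDP group received CDDP at the same time under a pump with phosphate-buffered saline (PBS). The CRS+ACBP and CRS groups carried the same 2 kinds of pump and were exposed to CRS after 48 hours; CRS is spelled out nowhere in the labels and is taken here to mean restraint stress. The ACBP group had the ACBP pump alone and the PBS group the PBS pump alone. Each group had 5 libraries. The doses of CDDP, the schedule of CRS and food intake are not given in the labels, so an effect of either model cannot be told apart from that of eating less. Nor do the labels say that each library came from its own animal, so p-values measure the spread between libraries.

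Hepcidin is a peptide hormone of hepatocytes that binds ferroportin, the only known exporter of iron from cells, and has it degraded, so that more hepcidin means less iron released into plasma. Bone morphogenetic proteins from the liver endothelium raise its transcription through SMAD proteins, helped by Hfe and transferrin receptor 2, and interleukin 6 raises it through STAT3, while signals from red cell production lower it. Inside cells, iron regulatory proteins bind hairpins in messenger RNAs: those in the 3′ UTR of transferrin receptor 1 protect the transcript when iron is scarce, and those in the 5′ UTR of ferritin and ferroportin transcripts block translation.

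The mouse has 2 hepcidin genes in tandem on chromosome 7. Whether the Hamp2 product acts on ferroportin as described above was not tested, so a Hamp2 level is not read as a measure of iron control. Hamp (ENSMUSG00000050440) lies at 30942368 to 30944032 and Hamp2 (ENSMUSG00000056978) at 30922372 to 30924681, both on the minus strand of GRCm38 (mm10). Their main transcripts were identical at 88.8% of 437 aligned positions and their promoters, over the 250 bases before the start, at 89.7%. The stretch in which 2 elements known from the human hepcidin promoter fall is shown for both genes because their transcripts differed in level under CDDP. Capitals mark the hexamer at the place of the BMP-responsive element GGCGCC and the STAT-type palindrome TTCNNNGAA. The sequences are RefSeq's on GRCm38.p6, 5′ to 3′ on the minus strand, chr7:30944093-30944150 for Hamp and chr7:30924242-30924299 for Hamp2.

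Hamp: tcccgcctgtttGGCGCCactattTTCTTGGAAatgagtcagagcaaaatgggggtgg

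Hamp2: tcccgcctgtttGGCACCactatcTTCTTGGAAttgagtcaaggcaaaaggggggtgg

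Counted from 1 at the 5′ end of the hexamer, Hamp2 carries the change G4A relative to Hamp, so that GGCGCC was found in the promoter window of Hamp and not in that of Hamp2. Both windows held TTCNNNGAA. Each of these motifs reads the same on either strand, and they do not overlap. Over all 32851 promoter windows of 250 bases before to 50 bases after a start, 11.9% held GGCGCC and 8.3% held TTCNNNGAA. Among the 8 members with promoter windows in that table, GGCGCC was in Hamp and in 1 window of Tfrc, and TTCNNNGAA in Hamp and Hamp2. These matches describe the letters and say nothing about binding.

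Reads counted on genes ran between 13957380 and 18479134 per library, and levels are given as CPM, the reads of a gene over the library's reads on genes times 1000000, scaled by edgeR's TMM factors. The 8 hepatocyte markers, Alb among them, were present in every group, with medians of their summed level of 89577 CPM in CDDP livers and 99286 CPM in PBS livers. By library the sum was 79752 to 147349 CPM in CDDP livers, highest in replicate 5, and 75216 to 102160 CPM in PBS livers. In CDDP+ACBP livers it was 44455 to 101421 CPM, lowest in replicate 3. In edgeR's test of CDDP against PBS, 3 of the 8 were higher and 2 lower, against 23.1% and 18.3% of all genes. The part of hepatocyte content in the levels was not tested. Cdkn1a, a p53 target that marks DNA damage, lay between 5.12 and 63.2 CPM in CDDP+ACBP livers and between 154 and 456 CPM in CDDP livers, against 0.688 to 6.46 CPM in PBS livers. The library CDDP+ACBP replicate 4 had the 5.12 CPM, inside the PBS range. CDDP replicate 5 stood apart with a TMM factor of 0.701, against 0.92 to 1.187 in the other libraries. Summed skeletal muscle markers ran from 1.13 to 8837 CPM over the libraries, and an alternative left out the 6 libraries with the highest muscle score together with ACBP replicate 4, which had the highest brain score. Among the libraries it kept, CDDP replicate 5 had the highest muscle sum, 758 CPM. In bulk tissue, fewer cells of a type and less RNA per cell cannot be told apart.

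In PBS livers, per kilobase of main transcript, the hepcidins led with 5152 ± 324 CPM per kb for Hamp and 4257 ± 467 for Hamp2 (SD, n = 5). The ferritin light chain Ftl1 followed with 1200.4 ± 355 CPM per kb and the heavy chain Fth1 with 1017 ± 154, 2 levels within their spread of each other. Tfr2 stood at 164 ± 36.7, Trf at 113 ± 20.4, Slc40a1 at 25.2 ± 4.06, Hfe at 7.40 ± 0.619 and Tfrc at 3.90 ± 1.16 CPM per kb. Bmp6 was lowest at 0.324 ± 0.214 CPM per kb, with 617 reads over all 30 libraries. Exons of Trf overlap the annotated gene Gm20425 on the same strand. Those of Ftl1 overlap Gm22133 on the same strand and Gm10252 on the opposite strand. Reads in such overlaps may have been left out, so the places of Trf and Ftl1 in this order are uncertain.

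Hamp2 fell under CDDP and Hamp did not. Hamp2 was 17.3-fold lower in CDDP livers than in PBS livers, while Hamp was higher in every CDDP library than in any PBS library. Hamp2 stood at 192, 3.68, 176, 159 and 5.97 CPM in CDDP livers 1 to 5, against 1828, 1834, 1962, 1561 and 2116 CPM in PBS livers. CDDP replicates 2 and 5 were far below the other 3 CDDP libraries, with 66 and 74 Hamp2 reads against 3151 to 3369, and no CDDP library came near the PBS range. The log2 fold change was -4.12 ± 0.72 (SE, edgeR quasi-likelihood test with Benjamini-Hochberg adjustment, adjusted p = 6.03e-05). Hamp stood at 2511, 2969, 2736, 2972 and 5383 CPM in CDDP livers, against 2233, 1890.05, 2107, 2189 and 2143 CPM in PBS livers. The groups did not overlap, although the edgeR fit of all libraries gave a log2 fold change of 0.65 ± 0.48 with an adjusted p of 0.29. Without TMM scaling, which raises CDDP replicate 5, Hamp averaged 3088 ± 452 CPM in CDDP livers and 2165.5 ± 158 CPM in PBS livers (SD, n = 5 each).

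**Figure D1:**
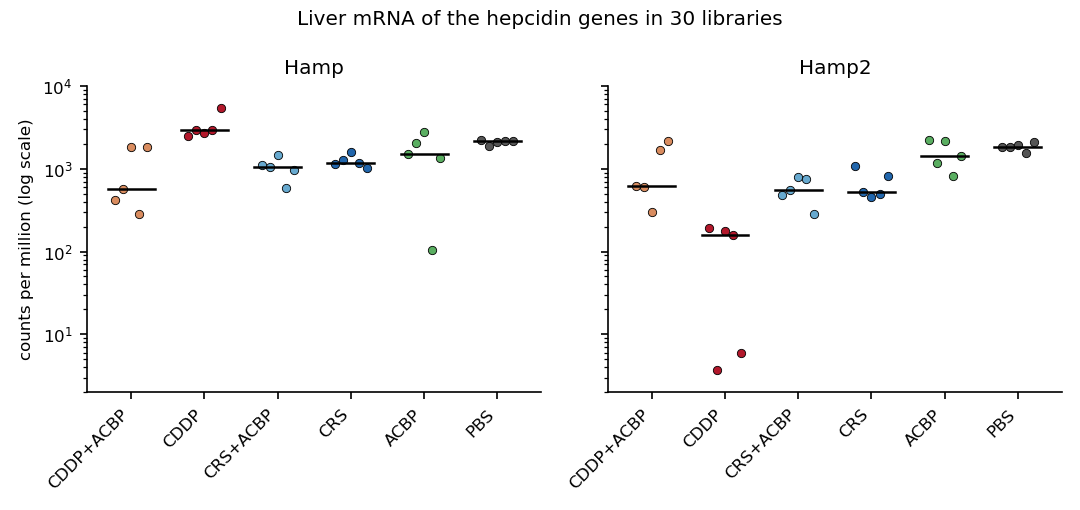
Hamp (left) and Hamp2 (right) in each of 30 libraries, in CPM on a log axis, with a line at each group's median. Hamp2 lay between 3.68 and 192 CPM in the 5 CDDP libraries, below every other library, while Hamp was between 2511 and 5383 CPM there.

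Under CDDP with the ACBP pump the 2 genes took other levels. Hamp2 stood at 624.6, 596, 298, 1681 and 2153 CPM in CDDP+ACBP livers, each above all 5 CDDP livers, with a log2 fold change of 3.32 ± 0.69 against CDDP (edgeR adjusted p = 0.000641). Hamp stood at 423, 565, 1853, 285 and 1851 CPM in CDDP+ACBP livers, each below all 5 CDDP livers, with a log2 fold change of -1.74 ± 0.50 (edgeR adjusted p = 0.00805). Replicates 1, 2 and 4 had low Hamp and replicates 3 and 5 did not. Cdkn1a was 63.2, 37.0, 52.8, 5.12 and 16.4 CPM in CDDP+ACBP livers 1 to 5. Replicates 4 and 5, with the lowest Cdkn1a, had the highest Hamp2, while their Hamp lay apart, at 285 and 1851 CPM. The part of the strength of the CDDP response in the Hamp2 levels was not tested. Without CDDP+ACBP replicate 4, the library with Cdkn1a in the PBS range, the log2 fold changes were 3.10 for Hamp2 (edgeR adjusted p = 0.00217) and -1.50 for Hamp (0.0265), in ranges over the fits without 1 library of 0.000507 to 0.00228 and 0.000903 to 0.0272. In the ACBP pump alone, Hamp was 1526, 2033, 2751, 104 and 1351 CPM and Hamp2 was 2227, 1178, 2155, 824 and 1416 CPM. ACBP replicate 4 was lowest for both genes, and both genes overlapped in ACBP livers with their range in CDDP+ACBP and in PBS livers.

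Markers of red blood cell precursors moved beside the hepcidins. Over 8 erythroid markers, the summed level was 6.97 to 9.33 CPM in CDDP livers, against 258 to 471 CPM in PBS livers, and the defining marker Slc4a1 had no read in any CDDP library. Of the 6 erythroid markers tested, 5 were lower in CDDP than in PBS, against 18.3% of all genes. In CDDP+ACBP against CDDP, 6 were higher, against 14.9% of all genes. In CDDP+ACBP livers 1 to 5 the erythroid sum was 1223, 1119.6, 166, 981 and 583 CPM, so the 3 libraries with the lowest Hamp had the 3 highest sums. ACBP replicate 4, with 104 CPM of Hamp, had a sum of 1509 CPM, against 424 to 510.1 CPM in the other ACBP libraries. CRS replicate 2 had the highest sum of all, 1673 CPM, with Hamp at 1289 CPM, inside the range of its group. In CRS+ACBP livers, with sums of 241 to 790 CPM, low Hamp and high sums did not fall together. Replicate 4 had the lowest Hamp, 586 CPM, and a sum of 461 CPM. Replicate 2 had the highest sum, 790 CPM, with Hamp at 1052 CPM. The part of red cell precursors in the hepcidin levels was not tested.

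Hamp2 made up a few percent of hepcidin reads under CDDP and about as many reads as Hamp under PBS. Its share of Hamp and Hamp2 reads together was 7.09%, 0.124%, 6.04%, 5.07% and 0.111% in CDDP livers 1 to 5, against 41.6% to 49.7% in PBS livers. In CDDP+ACBP livers the share ran between 13.9% and 85.5%, the widest range of the 6 groups, and in ACBP livers between 36.7% and 88.8%. CDDP was the group whose shares overlapped with no other group. The 2 genes together gave 1048 to 4004 CPM in CDDP+ACBP livers and 2703 to 5389 CPM in CDDP livers, against 3724 to 4259 CPM in PBS livers.

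**Figure D2:**
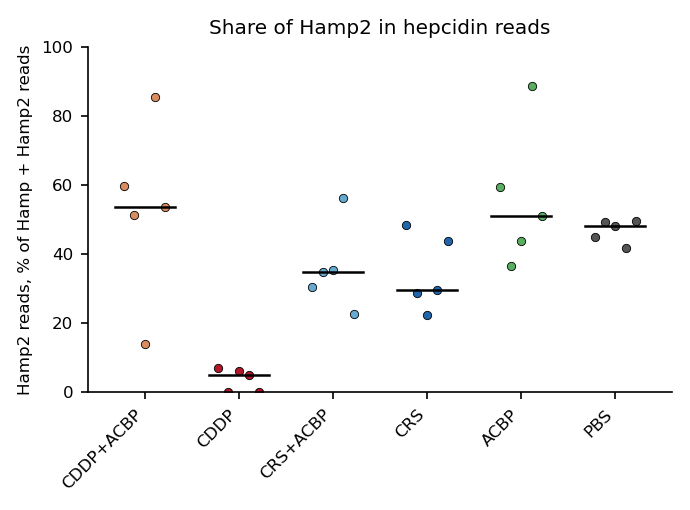
Share of Hamp2 in the summed reads of Hamp and Hamp2, in percent, for each library, with a line at each group's median. The 5 CDDP libraries lie between 0.111% and 7.09%, the 5 PBS libraries between 41.6% and 49.7%.

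How reads were divided between the 2 genes bears on these values. The longest stretch that the main transcripts share without a difference is 87 bases, and reads inside such stretches may have been left out or given to either gene. Over whole libraries, reads not aligned to a unique place were 6.22% to 7.32% of reads in CDDP livers and 11.31% to 12.27% in PBS livers. The part of this difference in the levels of the members was not tested. Gm44662, an annotated gene on the opposite strand that overlaps exons of Hamp2, had 0.984 to 3.45 times the reads of Hamp2 in CDDP livers and 0.992 to 1.03 times in PBS livers. The strand setting of the counting is not given, so reads of the 2 cannot be told apart. Over whole libraries a median of 43.4% of reads fell on no annotated feature and 38.0% on genes. The part of the strand setting in these shares and in the counts of the 2 genes was not tested. The counts differed in CDDP replicates 2 and 5, with 12.7 and 15.1 CPM of Gm44662 against 3.68 and 5.97 CPM of Hamp2.

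Across the groups, Hamp averaged 996 ± 788 CPM in CDDP+ACBP, 3314 ± 1172 in CDDP, 1033 ± 309 in CRS+ACBP, 1243 ± 206 in CRS, 1553 ± 976 in ACBP and 2112 ± 133 in PBS livers (SD, n = 5). In ascending order the groups were CDDP+ACBP, CRS+ACBP, CRS, ACBP, PBS and CDDP, and the first 4 overlapped with one another, ACBP also with PBS and CDDP. Hamp2 averaged 1071 ± 801 CPM in CDDP+ACBP, 107 ± 94.2 in CDDP, 574 ± 208 in CRS+ACBP, 670 ± 266 in CRS, 1560 ± 614 in ACBP and 1860.3 ± 204 in PBS livers. Its ascending order was CDDP, CRS+ACBP, CRS, CDDP+ACBP, ACBP and PBS, with the CDDP libraries apart from the rest.

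Over the 10 iron genes, 6 passed the test between CDDP and PBS livers, 4 higher and 2 lower. Of all genes tested, 41.4% passed, 23.1% higher and 18.3% lower, and with 10 genes a count of 6 is read as nothing particular to them. The median log2 fold change was 0.52 over the 10 genes and 0.02 over all genes. Levels of 3 genes were higher and of 1 lower without overlap between the groups, as were 24.6% of all genes, 13.3% higher and 11.4% lower. Besides Hamp2, the called genes were Fth1, Ftl1, Tfrc and Hfe, higher, and Trf, lower. Without CDDP replicate 5 the count was 5, Hfe no longer passing.

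Of the 3 genes that carry iron signals to hepcidin, Hfe passed the test by a small margin and Tfr2 and Bmp6 did not pass. Hfe, an atypical class I molecule that takes part in iron sensing and is mutated in hereditary haemochromatosis, stood at 27.6, 43.5, 32.0, 32.7 and 49.9 CPM in CDDP livers, against 28.4, 28.4, 27.1, 24.3 and 23.9 CPM in PBS livers. CDDP replicate 1 lay inside the PBS range and the other 4 above it. The log2 fold change of 0.49 ± 0.20 had an edgeR adjusted p of 0.046. That call was lost with RLE normalization (edgeR adjusted p = 0.0609), with no filter (0.0772) and with a filter of 1 CPM in 5 libraries (0.0587). It was also lost with only the groups compared (0.058), with DESeq2 (0.0649) and in 17 of the 30 fits that left out 1 library. Over 6 alternatives the adjusted p ran from 0.047 to 0.0772, and without CDDP replicate 5 it was 0.151.

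Tfr2, transferrin receptor 2, a sensor of iron-loaded transferrin on hepatocytes, ranged from 373 to 1288 CPM in CDDP livers and from 402 to 665 CPM in PBS livers. The log2 fold change of 0.40 ± 0.25 did not pass (edgeR adjusted p = 0.196). Without CDDP replicate 5, which held the 1288 CPM, it was -0.02. Bmp6, the bone morphogenetic protein that endothelial cells release when liver iron is high, ranged from 0.645 to 3.58 CPM in CDDP livers and from 0.554 to 2.44 CPM in PBS livers, with a log2 fold change of 0.56 ± 0.56 (edgeR adjusted p = 0.44). Its gene overlaps Txndc5 on the opposite strand, which had 72.3 to 187 CPM in CDDP livers and 113 to 169 CPM in PBS livers. Summed endothelial markers were 168 to 264 CPM in CDDP livers and 269 to 331 CPM in PBS livers, without overlap. Of the 10 markers, 4 were called lower, against 18.3% of all genes, and 2 were without CDDP replicate 5. Lyve1 was the 1 called higher, against 23.1% of all genes. It was at 21.5 ± 11.8 CPM in CDDP and 1.56 ± 0.526 CPM in PBS livers (log2 fold change 3.78, edgeR adjusted p = 6.35e-07). The part of these markers in the Bmp6 level was not tested.

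Further genes of hepcidin control were taken as lists, whose counts are to be set against the 23.1% of all genes called higher and the 18.3% called lower between CDDP and PBS livers. In the BMP arm, 4 of 13 genes were higher and 1 lower in CDDP than in PBS livers, with a median log2 fold change of 0.18 beside 0.02 over all genes. That is near the share of all genes called, 41.4%, and over the fits without 1 library 2 to 4 were higher and 0 to 2 lower. Fgl1, a hepatocyte factor reported to bind BMP6 and restrain hepcidin in mice, was at 1143 ± 537 CPM in CDDP and 412 ± 37.9 CPM in PBS livers (log2 fold change 1.47, adjusted p = 0.000108). Smad4, the common partner of receptor SMADs, and Bmpr1a, a BMP receptor, also rose, by 0.79 and 0.42 on the log2 scale, the call of Bmpr1a being lost in 5 of the 30 fits without 1 library (adjusted p up to 0.0891). Tmprss6, the protease that cuts hemojuvelin and lowers hepcidin, was at 325 ± 86.3 CPM in CDDP and 310.0 ± 23.2 CPM in PBS livers (adjusted p = 0.774).

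Of 8 SMAD target genes, 3 were higher in CDDP livers and 0 lower, with a median log2 fold change of 0.43. Of all genes, 41.4% were called, 23.1% higher and 18.3% lower, so a count of 3 of 8 is near the background. Id1 was at 65.8 ± 25.9 CPM in CDDP and 21.7 ± 3.67 CPM in PBS livers (log2 fold change 1.60, adjusted p = 0.000849). Smad9 rose by 1.26 and Id3 by 0.99 on the log2 scale. Smad6 and Smad7, inhibitory SMADs that are themselves targets, did not pass, with log2 fold changes of -0.36 and -0.14. Atoh8, a transcription factor reported to act on the hepcidin promoter, was at 47.8 ± 14.6 CPM in CDDP and 33.6 ± 9.99 CPM in PBS livers (adjusted p = 0.276).

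In the arm of interleukin 6 and activin, 6 of 9 tested genes were higher in CDDP livers and 1 lower, with a median log2 fold change of 0.70, against 23.1% higher and 18.3% lower of all genes. Without CDDP replicate 5 the count was 4 higher and 1 lower and the median 0.41. The calls lost there included Il6ra (0.19, adjusted p = 0.504) and the interleukin 1 receptor gene Il1r1 (0.46, adjusted p = 0.239). Inhbb, the gene of the activin B subunit, was at 10.5 ± 9.53 CPM in CDDP and 0.731 ± 0.456 CPM in PBS livers (log2 fold change 3.83, adjusted p = 1.83e-05). Stat3 was at 232 ± 149 CPM in CDDP and 79.0 ± 15.01 CPM in PBS livers (1.55, adjusted p = 8.28e-05). Il1b, a cytokine of macrophages, fell to 0.797 ± 0.409 CPM in CDDP, against 3.09 ± 1.98 CPM in PBS livers. Of 10 Kupffer cell markers, 6 were called lower and 1 higher there, with sums of 194 to 291 CPM in CDDP and 339 to 408 CPM in PBS livers. The higher one was Marco, a scavenger receptor, at 60.8 ± 36.0 CPM in CDDP and 8.30 ± 2.88 CPM in PBS livers (log2 fold change 2.87, adjusted p = 1.72e-06), and the part of these cells was not tested. Il6 itself averaged 0.0223 CPM in CDDP and 0.106 CPM in PBS livers and did not pass the filter on low counts.

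Among the genes of iron transport, transferrin fell and its receptor rose. Trf, the plasma iron carrier made by hepatocytes, stood at 186, 66.1, 167, 83.1 and 233 CPM in CDDP livers, against 340.3, 230.4, 239, 315 and 331 CPM in PBS livers. CDDP replicate 5 reached the lowest PBS library and the other 4 lay below all of them. The log2 fold change was -0.99 ± 0.27 (edgeR adjusted p = 0.00397). The part of the overlap with Gm20425 in the counts of Trf was not tested. Tfrc, transferrin receptor 1, which brings iron-loaded transferrin into cells, stood at 32.4, 38.6, 30.5, 32.9 and 35.7 CPM in CDDP livers, against 19.2, 28.4, 13.8, 15.6 and 18.2 CPM in PBS livers. Every CDDP library was above every PBS library, with a log2 fold change of 0.84 ± 0.20 (edgeR adjusted p = 0.00144).

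Slc40a1, ferroportin, ranged from 29.9 to 118 CPM in CDDP livers and from 66.4 to 103 CPM in PBS livers. The CDDP libraries lay on both sides of the PBS range, and the log2 fold change of -0.32 ± 0.24 did not pass (edgeR adjusted p = 0.281). Without CDDP replicate 4, the highest, it was -0.62 with an adjusted p of 0.0274, and over the 30 fits that left out 1 library the adjusted p ran from 0.0274 to 0.647.

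The storage genes rose. Fth1, the ferritin heavy chain that oxidizes iron for storage, stood at 1335, 3333, 1710.4, 2092 and 2877 CPM in CDDP livers, against 847, 1003, 1167, 896 and 812 CPM in PBS livers. The groups did not overlap, and CDDP replicates 2 and 5, which had the least Hamp2, had the most Fth1. The log2 fold change was 1.26 ± 0.25 (edgeR adjusted p = 0.000218). Ftl1, the light chain, stood at 1479, 2956, 1591, 2693 and 1850.1 CPM in CDDP livers, against 716, 1319, 1539, 1345 and 890 CPM in PBS livers. PBS replicate 3 reached above the lowest CDDP library, and the log2 fold change was 0.86 ± 0.27 (edgeR adjusted p = 0.0113). In CDDP replicate 5 Ftl1 was at 1850.1 CPM, below 2956 and 2693 CPM, so it did not share the order of Fth1. A link of either ferritin gene with Hamp2 was not tested. Both ferritin genes have processed pseudogenes elsewhere in the genome, so reads shared with them are uncertain.

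Iron-responsive hairpins were looked for in the main transcripts of all genes, because the transcripts that carry them in their 3′ UTR and those that carry them in their 5′ UTR are regulated in different ways. The pattern was an unpaired C, an arm of 5 bases, the loop CAGTGN and an arm of 5 bases that pairs with the first, G-U pairs allowed, on the transcript strand. It was found in 258 of 22500 main transcripts (1.15%). Among the 10 genes it was present in 4: at 4 sites in the 3′ UTR of Tfrc and at 1 site each in the 5′ UTR of Fth1, Ftl1 and Slc40a1. Sites are shown with 29 bases and the loop in capitals, from GENCODE vM21 transcripts on GRCm38: sites 1 and 4 of Tfrc (chr16:32631219-32631247 and chr16:32631710-32631738, plus strand), Slc40a1 (chr1:45925465-45925493, minus strand), Fth1 (chr19:9982732-9982760, plus strand) and Ftl1 (chr7:45459779-45459807, minus strand).

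Tfrc element 1: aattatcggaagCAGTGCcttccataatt

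Tfrc element 4: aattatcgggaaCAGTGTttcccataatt

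Slc40a1 element 1: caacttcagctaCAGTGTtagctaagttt

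Fth1 element 1: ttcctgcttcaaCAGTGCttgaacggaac

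Ftl1 element 1: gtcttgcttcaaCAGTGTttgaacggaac

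The 4 genes with this pattern were called higher in CDDP than in PBS livers for Tfrc, Fth1 and Ftl1 and not called for Slc40a1. Translation is not measured by transcript counts. The regulators showed smaller differences: Aco1, which encodes iron regulatory protein 1, was at 124 ± 18.2 CPM in CDDP and 101 ± 16.9 CPM in PBS livers (adjusted p = 0.121), and Ireb2, iron regulatory protein 2, at 48.2 ± 13.99 CPM in CDDP and 55.4 ± 4.01 CPM in PBS livers (adjusted p = 0.273). Without CDDP replicate 5, Ireb2 was called lower, at -0.385 (edgeR adjusted p = 0.0152), and Aco1 was not called, at 0.251 (0.221). Ireb2 was then also called higher in CDDP+ACBP against CDDP, at 0.382 (edgeR adjusted p = 0.0202). Its interaction of CDDP and ACBP was called too, at 0.628 (0.0111).

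**Figure D3:**
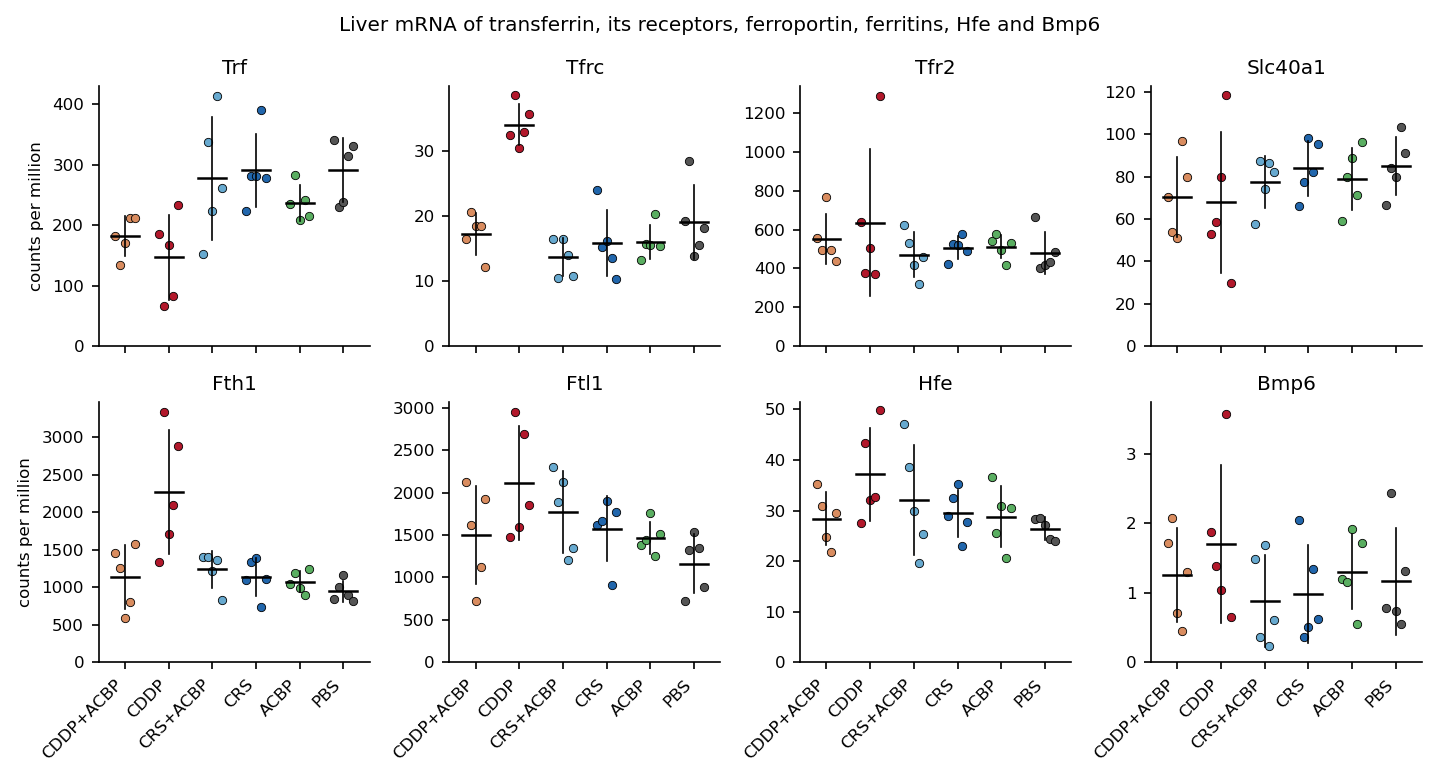
The other 8 genes in each library, in CPM on linear axes that start at 0, with the mean (horizontal line) and SD (vertical line) of 5 libraries. Tfrc in CDDP livers lies between 30.5 and 38.6 CPM, above every other library shown, and Fth1 in CDDP livers between 1335 and 3333 CPM.

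Among further genes of iron sensing and storage, 2 of 8 were higher and 1 lower in CDDP livers, with a median log2 fold change of 0.24. These counts are near those of all genes, of which 23.1% were higher and 18.3% lower. Ncoa4, the receptor that sends ferritin to lysosomes, was at 36.9 ± 10.1 CPM in CDDP and 13.01 ± 1.65 CPM in PBS livers (log2 fold change 1.50, adjusted p = 3.63e-05). Pcbp1, a chaperone that delivers iron to ferritin, rose by 0.89 on the log2 scale. Slc25a37, the mitochondrial iron importer mitoferrin 1, which red cell precursors use most, fell to 39.8 ± 12.99 CPM in CDDP, against 95.8 ± 18.1 CPM in PBS livers (log2 fold change -1.27, adjusted p = 4.93e-05). It moved with the erythroid markers given above, whose part was not tested.

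Of the 11 further iron transport genes tested, 6 were higher and 1 lower in CDDP livers, against 23.1% higher and 18.3% lower of all genes. The median log2 fold change was 0.97, and 0.45 without CDDP replicate 5, where 5 were higher. Lcn2, lipocalin 2, which binds iron-carrying siderophores and is an acute phase protein, was at 591 ± 743 CPM in CDDP and 10.2 ± 2.74 CPM in PBS livers (log2 fold change 5.85, adjusted p = 7.37e-07). CDDP replicate 5 held 1902 CPM of it and the other 4 CDDP libraries 263 ± 141 CPM, and without replicate 5 the log2 fold change was 4.69 (adjusted p = 7.28e-07), over the fits without 1 library 4.69 to 6.12. Steap4, a metalloreductase, was at 122 ± 101 CPM in CDDP and 22.1 ± 3.95 CPM in PBS livers (2.46, adjusted p = 4.8e-05). Slc22a17, a receptor for lipocalin 2, fell by 1.92 on the log2 scale. In heme and hemoglobin handling, 7 of 13 genes were higher and 2 lower, against the same shares of all genes, with a median log2 fold change of 0.54. Hp, haptoglobin, which binds free hemoglobin, was at 12857 ± 14054 CPM in CDDP and 3059 ± 175 CPM in PBS livers, a log2 fold change of 2.07 (adjusted p = 0.00011). CDDP replicate 5 held 37884 CPM and the other 4 CDDP libraries 6601 ± 1545 CPM, and without replicate 5 the change was 1.11 (adjusted p = 0.000277). Slc48a1, a heme transporter of lysosomes, rose by 1.33. Cd163, the macrophage receptor for haptoglobin with hemoglobin, fell by 1.21; the values of Kupffer cell markers are given above.

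CDDP was next compared between pumps. Against CDDP alone, 4 of the 10 genes passed the test in CDDP+ACBP livers, 1 higher and 3 lower. Of all genes, 33.8% passed, 14.9% higher and 18.8% lower, and the median log2 fold change was -0.42 over the 10 genes and -0.01 over all genes. Levels of 1 gene were higher and of 2 lower without overlap, against 6.02% higher and 8.09% lower of all genes, 14.1% together. Besides the 2 hepcidins, Tfrc and Fth1 were lower. Tfrc stood at 16.5, 20.7, 18.4, 18.4 and 12.2 CPM in CDDP+ACBP livers, each below all 5 CDDP livers, with a log2 fold change of -0.98 ± 0.20 (edgeR adjusted p = 0.000502). Fth1 stood at 1457, 1259, 590, 797 and 1570.1 CPM in CDDP+ACBP livers, with replicates 1 and 5 above the lowest CDDP library and a log2 fold change of -1.0 ± 0.25 (edgeR adjusted p = 0.0027). In a fit of these 2 groups alone the Fth1 change was -0.96 with an adjusted p of 0.0802, and over 6 alternatives the adjusted p ran from 0.000498 to 0.0802.

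The other 6 genes did not pass in CDDP+ACBP against CDDP. Ftl1 was between 726 and 2122 CPM in CDDP+ACBP livers (log2 fold change -0.49 ± 0.27, edgeR adjusted p = 0.155) and Hfe between 21.8 and 35.2 CPM (-0.39 ± 0.20, 0.129). Trf stood at 183, 134, 170, 213 and 212 CPM in CDDP+ACBP livers, inside the range of CDDP livers and below every PBS library (log2 fold change against CDDP 0.31 ± 0.26, edgeR adjusted p = 0.378). Tfr2, Slc40a1 and Bmp6 had log2 fold changes of -0.21, 0.05 and -0.46.

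The 6 lists were counted in the same comparison, in which 14.9% of all genes were higher and 18.8% lower. In CDDP+ACBP against CDDP livers, 0 genes were higher and 4 lower in the BMP arm, 0 and 3 among SMAD targets, and 0 and 5 in the arm of interleukin 6 and activin. For iron transport these counts were 1 and 5, for heme handling 1 and 7 and for sensing and storage 1 and 3. The lists held 13, 8, 9, 11, 13 and 8 tested genes in that order. Over the fits without 1 library, 2 to 4 were lower in the BMP arm, 3 to 5 among SMAD targets, 4 to 6 in the arm of interleukin 6 and activin, 4 to 6 in iron transport, 6 to 7 in heme handling and 2 to 4 in sensing and storage. Inhbb was at 0.542 ± 0.473 CPM in CDDP+ACBP and 10.5 ± 9.53 CPM in CDDP livers (log2 fold change -4.25, adjusted p = 1.42e-05). Id1 was at 19.97 ± 9.47 CPM in CDDP+ACBP and 65.8 ± 25.9 CPM in CDDP livers (-1.72, adjusted p = 0.000677). Cp, ceruloplasmin, which oxidizes iron for loading onto transferrin, was at 580.4 ± 92.7 CPM in CDDP+ACBP and 1480 ± 760 CPM in CDDP livers (-1.35, adjusted p = 6.42e-05).

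The comparisons of CDDP+ACBP with CDDP and of CDDP with PBS share the 5 CDDP libraries with opposite sign, so a change of sign between them is not read as a result. Further called log2 fold changes of CDDP+ACBP against CDDP among regulators were -1.13 for Fgl1, -0.67 for Smad4, -0.46 for Bmpr1a, -1.29 for Id3, -1.31 for Smad9 and -1.11 for Stat3, and -1.09 for the interleukin 6 receptor gene Il6ra. Among transport and heme genes, Lcn2 was at -4.91, Steap4 at -2.10, Hp at -1.95, Slc48a1 at -1.08 and the heme oxygenase gene Hmox2 at -1.02. Without CDDP replicate 5 those of Lcn2 and Hp were -3.75 (adjusted p = 1.48e-05) and -0.99 (adjusted p = 0.00127). Ncoa4 was at -1.72 and Pcbp1 at -0.86, while Slc25a37 was at 1.27, and all of these passed. Cd163 did not, at 0.08, with 5.72 ± 1.88 CPM in CDDP+ACBP and 5.42 ± 0.778 CPM in CDDP livers.

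The comparison of CDDP+ACBP with ACBP shares no library with that of CDDP with PBS. In it 0 of the 10 genes passed (edgeR, adjusted), against 0.129% of all genes, and 0 of the 10 had an unadjusted p under 0.05, with 790 of all genes. DESeq2 called 0 of the 10 and 87 of all genes. Log2 fold changes of Hamp and Hamp2 were -0.64 ± 0.48 and -0.54 ± 0.64, that of Trf was -0.38 ± 0.26, and those of the other 7 genes lay between -0.17 and 0.11. Of the 62 genes of the 6 lists tested, Cd163 passed, with 5.72 ± 1.88 CPM in CDDP+ACBP and 12.9 ± 4.003 CPM in ACBP livers (log2 fold change -1.17, adjusted p = 0.0261). Kupffer cell markers were lower here too, 5 of 10, with summed levels of 182 to 265 CPM in CDDP+ACBP and 380.4 to 470 CPM in ACBP livers.

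**Figure D4:**
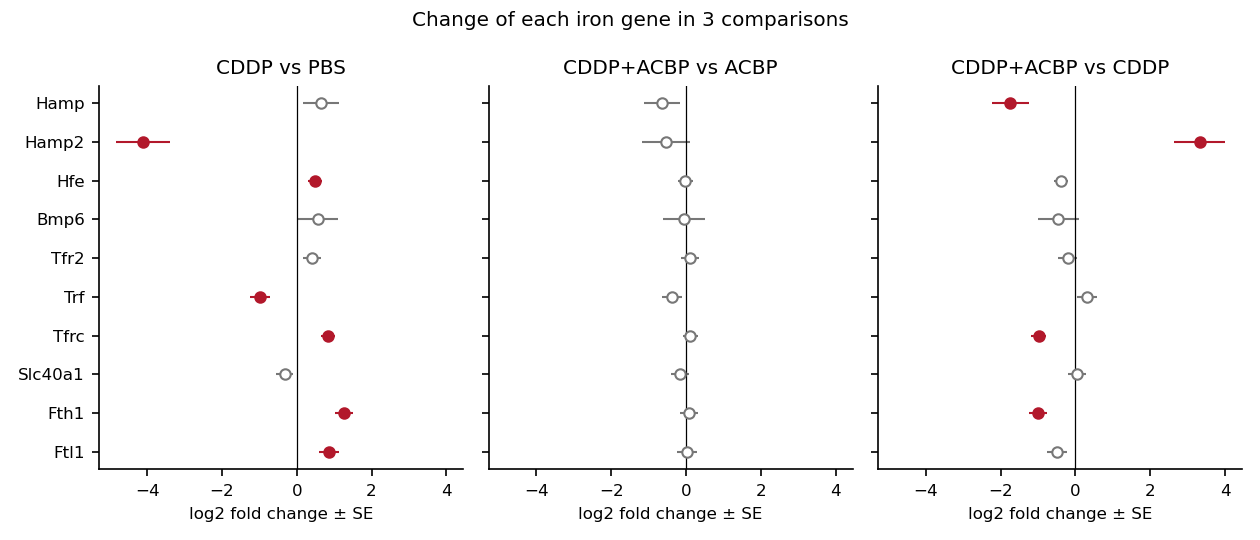
Log2 fold change of each of the 10 genes with its SE in 3 comparisons, filled red where edgeR's adjusted p is under 0.05. CDDP against PBS has 6 filled points, CDDP+ACBP against ACBP has 0 and CDDP+ACBP against CDDP has 4; the first and second share no library, and the third shares libraries with both.

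Whether the change under CDDP differed between the 2 pumps was tested as an interaction, the CDDP effect under the ACBP pump minus that under the PBS pump on the log2 scale. For Hamp2 it was 3.57 ± 0.92 (edgeR adjusted p = 0.00806) and for Fth1 -1.18 ± 0.35 (adjusted p = 0.0171). These were 2 of 10 genes, against 19.7% of all genes. The response to CDDP differed widely between the pumps: 41.4% of all genes were called in CDDP against PBS and 0.129% in CDDP+ACBP against ACBP. Cdkn1a averaged 34.9 CPM in CDDP+ACBP and 311 CPM in CDDP livers. Whether the iron genes differed apart from this wider difference was not tested. Without the 7 libraries highest for muscle or brain markers the Hamp2 value was 3.42 with an adjusted p of 0.0545 and the Fth1 value -1.27 with an adjusted p of 0.0718, while Tfrc passed at -0.87 (adjusted p = 0.0388). Over 6 alternatives the adjusted p ran from 0.00175 to 0.0545 for Hamp2, from 0.00623 to 0.0718 for Fth1 and from 0.0388 to 0.109 for Tfrc. With all libraries Tfrc stood at -0.73 ± 0.28 (adjusted p = 0.0646) and Hamp at -1.29 ± 0.69 (adjusted p = 0.182). Without ACBP replicate 4 the Hamp value was -1.59 with an adjusted p of 0.0366, and over the fits without 1 library it ran from 0.0366 to 0.33. Tfrc passed without PBS replicate 2 (-0.92, adjusted p = 0.018) and without CRS replicate 1 (-0.73, adjusted p = 0.0458), with a range of 0.018 to 0.124.

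Of all genes, 8.38% had an interaction called higher and 11.3% called lower. Among the 6 pathway lists the interaction was largest in size for Lcn2, at -6.56 (adjusted p = 3.41e-05), followed by Inhbb at -4.47 (adjusted p = 0.000813). It was called lower for 3 BMP arm genes, Fgl1, Bmpr1a and Smad4, and for Smad9 among SMAD targets. Stat3 (-1.28, adjusted p = 0.0201) and Il6ra (adjusted p = 0.0415) were also lower, as were Steap4 (-2.43, adjusted p = 0.00456) and Cp (adjusted p = 0.00156). In heme handling 5 genes were lower, Hp among them at -2.40 (adjusted p = 0.00253), with Slc48a1 and the inducible heme oxygenase gene Hmox1. Ncoa4 (-1.49, adjusted p = 0.00444) and Pcbp1 (adjusted p = 0.0148) were lower too. Slc25a37 was called higher, at 1.44 (adjusted p = 0.00195), as were 4 of 6 erythroid markers tested. The calls of Bmpr1a and Smad4 were each lost in 12 of the 30 fits without 1 library, and that of Il6ra in 10 (adjusted p up to 0.137). Without CDDP replicate 5, Fgl1 was the 1 BMP arm gene called, Stat3 was at -0.81 (adjusted p = 0.0571), Steap4 at -1.84 (0.0122), Lcn2 at -5.39 (3.09e-05) and Hp at -1.44 (0.00202).

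**Figure D5:**
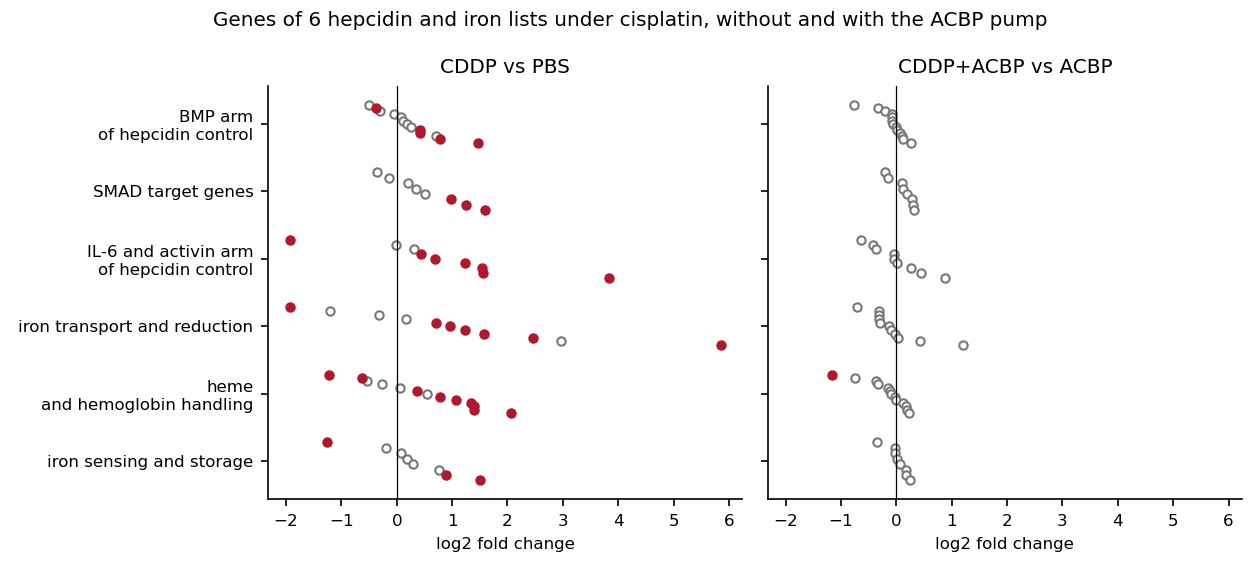
Log2 fold change of each tested gene in 6 lists of hepcidin control and iron handling, filled red where edgeR's adjusted p is under 0.05. CDDP against PBS has genes at up to 5.85 (Lcn2) and down to -1.93 (Il1b), while CDDP+ACBP against ACBP has 1 filled point, Cd163 at -1.17.

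CRS was compared with PBS. Both hepcidins were lower in every CRS library than in any PBS library, and no other iron gene was without overlap. Hamp stood at 1148, 1289, 1574, 1168 and 1036 CPM in CRS livers, and Hamp2 at 1074, 520.4, 454, 492 and 809 CPM, against the PBS values of 1890.05 to 2233 and 1561 to 2116 CPM. Levels of 4.31% of all genes did not overlap between these groups, 2.05% being lower in CRS. In the fit of all libraries the log2 fold changes were -0.77 ± 0.49 for Hamp and -1.47 for Hamp2, with adjusted p of 0.664 and 0.521, so 0 of the 10 genes passed, against 0.141% of all genes. Hamp2 was the 1 gene of the 10 with an unadjusted p under 0.05, and DESeq2 called 0 of the 10.

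The result depended on which libraries entered the fit. In a fit of CRS and PBS libraries alone, which were then also filtered to 14867 genes and normalized by themselves, both hepcidins passed, Hamp at -0.79 (edgeR adjusted p = 0.00614) and Hamp2 at -1.49 (adjusted p = 0.00669), against 1.78% of all genes. Over 6 alternatives the adjusted p ran from 0.00614 to 0.724 for Hamp and from 0.00669 to 0.665 for Hamp2. The SD of Hamp was 206 CPM in CRS livers (16.5% of the mean) and 133 CPM in PBS livers (6.30%). It was 1172 CPM in CDDP (35.4%), 976 CPM in ACBP (62.8%), 788 CPM in CDDP+ACBP (79.2%) and 309 CPM in CRS+ACBP livers (29.9%). All of these enter the fit of all libraries. The part of spread, filter and normalization in the difference was not tested. Hamp2 made up 22.4% to 48.3% of hepcidin reads in CRS livers, overlapping with the PBS range. Erythroid markers did not pass in this comparison, with summed levels of 269 to 1673 CPM in CRS and 258 to 471 CPM in PBS livers.

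The remaining iron genes of CRS livers overlapped with those of PBS livers. Ftl1 ranged from 913 to 1903 CPM in CRS and from 716 to 1539 CPM in PBS livers, Fth1 from 737 to 1394 CPM in CRS and from 812 to 1167 CPM in PBS livers, and Tfrc from 10.3 to 23.99 CPM in CRS and from 13.8 to 28.4 CPM in PBS livers. Trf ranged from 224 to 390 CPM in CRS and from 230.4 to 340.3 CPM in PBS livers. Of the 62 tested genes of the lists, Lcn2 passed, at 254 ± 97.6 CPM in CRS and 10.2 ± 2.74 CPM in PBS livers (log2 fold change 4.63 ± 0.67, edgeR adjusted p = 0.0011). Id1 was at 8.81 ± 1.81 CPM in CRS and 21.7 ± 3.67 CPM in PBS livers, a log2 fold change of -1.30 that did not pass (adjusted p = 0.224).

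Under the ACBP pump, CRS was compared with no CRS, and Hamp2 again did not overlap between the groups. Hamp2 stood at 481, 559, 793, 753 and 285 CPM in CRS+ACBP livers, each below the lowest ACBP library at 824 CPM, while 1.84% of all genes did not overlap between these groups, 1.12% being lower. The log2 fold change was -1.44 ± 0.65 with an adjusted p of 0.661. Hamp stood at 1098, 1052, 1451, 586 and 976 CPM in CRS+ACBP livers, inside the range of ACBP livers. This comparison and that of CRS with PBS share no library.

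With edgeR, 0 of the 10 genes and 0% of all genes passed in CRS+ACBP against ACBP, ACBP against PBS, CRS+ACBP against CRS and the interaction of CRS and ACBP. At an unadjusted p under 0.05 there were 1194 genes in CRS+ACBP against ACBP, Hamp2 among them, and DESeq2 called 24. ACBP against PBS had 714 such genes and 11 DESeq2 calls, CRS+ACBP against CRS 468 and 0, and the interaction of CRS and ACBP 388 and 6, with 0 of the 10 genes in any of these 3. In ACBP against PBS livers the log2 fold changes of the 10 genes lay between -0.44 (Hamp) and 0.34 (Ftl1), with SEs of 0.20 to 0.63, and in CRS+ACBP against CRS between -0.27 (Hamp) and 0.17 (Ftl1). A p above the threshold does not show that levels were equal. For the interaction of CRS and ACBP, Hamp stood at 0.18 ± 0.68 and Hamp2 at 0.03 ± 0.90.

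The genes most like Hamp over the 30 libraries were taken by the root mean square difference of log2 CPM, each gene centred on its own mean. Atoh8 was nearest at 0.824, followed by Rps23-ps1 at 0.860, Rrs1 at 0.865, Naip2 at 0.871 and Emilin2 at 0.882, among 16303 genes. Hamp's own deviation from its mean was 1.12, so these 5 genes follow it in part. The measure was applied to Hamp2 after its values were seen, and Gm44662, which overlaps Hamp2 on the opposite strand and may share its reads, was nearest at 0.387. Next was Serpina6, which encodes corticosteroid-binding globulin, at 0.620, against 2.15 for the deviation of Hamp2 from its own mean. Serpina6 averaged 368 CPM in CDDP+ACBP, 27.1 CPM in CDDP, 289 CPM in CRS+ACBP, 326 CPM in CRS, 480 CPM in ACBP and 546 CPM in PBS livers.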

How the data were processed

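The deposited values are raw read counts per gene, 1 table for 30 liver libraries. The submitters' processing notes name HISAT2 2.2.1, HTSeq 2.0.3 and the build mm10. Neither the annotation release nor the strand setting of the counting is given there. The 5 summary lines of unassigned reads (median 62.0% of reads) were left out. Among them, reads on no annotated feature had a median of 43.4% of all reads. Gene identifiers matched GENCODE vM21 for 99.2%.

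The test was edgeR's quasi-likelihood F test (edgeR 4.0.16, R 4.3.3) after TMM normalization and filterByExpr. All 30 libraries entered 1 model with a term for each of the 6 groups, which left 24 residual degrees of freedom. A gene was called at a Benjamini-Hochberg adjusted p under 0.05 over all 16304 genes. The SE of a log2 fold change is its size divided by the square root of F. CPM values were computed from the deposited counts.

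The genes and the 6 pathway and 6 marker lists were chosen with earlier results of these data known. Up to 3 called genes per list and comparison with the smallest p were named, with further list genes chosen after their values were seen, as was the use of the likeness measure for Hamp2. Alternatives were RLE, no filter, a filter of 1 CPM in 5 libraries, only the groups compared, DESeq2 1.42.0, leaving out 7 libraries (the 6 highest for muscle markers and the highest for brain markers), and leaving out each library in turn, which was applied to the lists after their values were seen. Tables and figures used Python 3.11.15, pandas 2.3.3, numpy 2.4.6 and matplotlib 3.10.9.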

Additional observations from a re-analysis of the deposited data

Results flagged for a closer look

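In 3 of 60 groups of 5 libraries, 1 library lay far from the others by Dixon's criterion, which chance reaches in about 1 in 20 groups. CDDP replicate 5 had 5383 CPM of Hamp, against 2511 to 2972 CPM in the other CDDP livers, and 1288 CPM of Tfr2, against 373 to 638 CPM. CRS replicate 4 had 913 CPM of Ftl1, against 1617 to 1903 CPM in the other CRS livers. Without CDDP replicate 5, the log2 fold change of Hamp between CDDP and PBS was 0.41 (edgeR adjusted p = 0.555), in a range of 0.41 to 0.74 over the fits without 1 library.

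The CDDP effect was called different between the ACBP pump and the PBS pump for Hamp2, by 3.57 on the log2 scale, and for Fth1, by -1.18, both by edgeR's interaction test. Of all genes tested, 19.7% had this interaction called. Without the 7 libraries highest for muscle or brain markers both calls were lost (edgeR adjusted p = 0.0545 for Hamp2 and 0.0718 for Fth1).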

How the results depend on the processing

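No paired analysis was possible because the labels number the libraries from 1 to 30 and no number recurs between groups. Over 32 single-gene results, 1152 alternative values kept direction and side of the threshold in 1111 cases, lost the call in 25, gained it in 7 and changed direction in 9, and 0 of 60 group levels moved by over 1 SD without TMM. The number of the 10 genes called was 2 in place of 0 for CRS against PBS with only the groups compared, a fit that also filters and normalizes those libraries alone; the cause was not tested. It was 1 in place of 2 for the interaction of CDDP and ACBP without the 7 libraries highest for muscle or brain markers, where fewer libraries remain. Leaving out 1 library gave 5 to 7 called genes for CDDP against PBS, 4 for CDDP+ACBP against CDDP, 2 to 3 for the interaction, and 0 otherwise.

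Changes of direction came when 1 library was left out, in genes that were not called. Log2 fold changes then ran from -0.021 to 0.55 for Tfr2 in CDDP against PBS. In CDDP+ACBP against CDDP they ran from -0.36 to 0.22 for Tfr2, from -0.14 to 0.35 for Slc40a1 and from -0.72 to 0.003 for Bmp6. In the interaction they ran from -0.45 to 0.13 for Tfr2 and from -0.033 to 0.45 for Slc40a1. The cause was not tested.

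Counts over all genes moved by over 1.5 times in these cases. For CRS against PBS 23 genes became 265 with only the groups compared, 9 without the 7 libraries, 80 with DESeq2 and 9 to 38 without 1 library. For CDDP+ACBP against CDDP 5503 became 2217 with only the groups compared. For CDDP+ACBP against ACBP 21 became 2, 0 and 87 in the first 3 of these settings and 5 to 39 without 1 library. The interaction of CDDP and ACBP had 3216, and 1722 without the 7 libraries. Of the comparisons with 0, ACBP against PBS had 1 with no filter and 11 with DESeq2, CRS+ACBP against ACBP 24 with DESeq2, and the interaction of CRS and ACBP 1 with only the groups compared and 6 with DESeq2; without 1 library they and CRS+ACBP against CRS had 0 to 1. Bmp6, at 617 reads in all, is limited by depth.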
